A study of Mus musculus with 2 samples.

Results

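The 49 genes described here act in the cell cycle and in DNA replication: 23 of them in S phase or at the entry into it, and 26 in mitosis. They were measured in splenic T cells of C57BL/6 mice, sorted into a CD8+CD122+ and a CD8+CD122- population. Members were found on the array by their symbol or an older alias, such as Cdc2a for Cdk1, Cdc45l for Cdc45 and Ris2 for Cdt1. Of the 49 genes, 45 had a probe that could be tested, among 21959 genes tested in all. The other 4 (Ccne2, Cdc45, Cenpf and Kif11) had no probe well above the local background in the same population on both arrays.

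CD122, the product of Il2rb, is a signalling subunit shared by the interleukin 2 and interleukin 15 receptors, and CD8+CD122+ cells are known as a memory-like population that the series calls regulatory. Polyadenylated RNA of both populations was amplified and hybridised together to each of 2 two-colour arrays. Array 1 (replicate 1) had its CD8+CD122+ RNA labelled with the dye Cy5 and its CD8+CD122- RNA with Cy3. On array 2 (replicate 2, a second trial) the labels were exchanged. The age, sex, treatment and number of the mice, and whether spleens were pooled, are not given in the sources used here. Whether new mice were taken for the second trial is not given either. The p-values of limma therefore rest only on spread between these 2 arrays, each gene's own spread being drawn towards that of all genes. Differences between the arrays may come from the dyes or from the trial, and these cannot be told apart. The samples of the arrays were not alike: the haemoglobin gene Hbb-b1 read 239 in CD8+CD122+ and 229 in CD8+CD122- cells on array 1, and 2971 and 2496 on array 2. With 2 arrays an exact two-sided sign-flip permutation test of a single value cannot give a p below 0.5.

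Cells enter the cycle when cyclin-dependent kinases inactivate the retinoblastoma protein and so release E2F factors, which switch on the genes of DNA replication. A second wave of genes, driven by the MuvB complex together with B-Myb and FoxM1, makes the mitotic machinery later in the cycle. Most naive T cells are out of the cycle, whereas memory CD8 T cells divide slowly in response to interleukin 15. The RNA level of a cycle gene in a sorted population therefore depends both on how many cells are in cycle and on how much RNA each of them holds.

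The waves differ in their promoters, and the members carried that difference. RefSeq promoter windows of 300 bases (assembly GRCm38.p6) were found for 40 of the 49 members, with 46 windows in all because some genes have several starts. They were searched on both strands for 3 motifs. E2F sites were spelled TTCCCGC, or else by the variants TTGGCGC, then also TTCGCGC and, as the last spelling, TTGCCGC. The cell cycle homology region or CHR, at which the DREAM and MuvB complexes bind, was spelled TTTGAA, or in its variant form TTCGAA. The third motif was the CCAAT box, at which NF-Y binds. The listed motifs can overlap one another in a window, and a match is a description of letters and not a shown binding site. An E2F motif was present in 16 of 25 windows of S phase members (64.0%), in 3 of 21 of mitosis members (14.3%) and in 9.57% of all 32851 windows. A CHR motif was present in 4 of 25 S phase windows (16.0%), in 17 of 21 mitosis windows (81.0%) and in 19.2% of all windows. A CCAAT box was present in 14 of 25 S phase windows (56.0%), in 19 of 21 mitosis windows (90.5%) and in 37.4% of all windows.

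**Figure D1:**
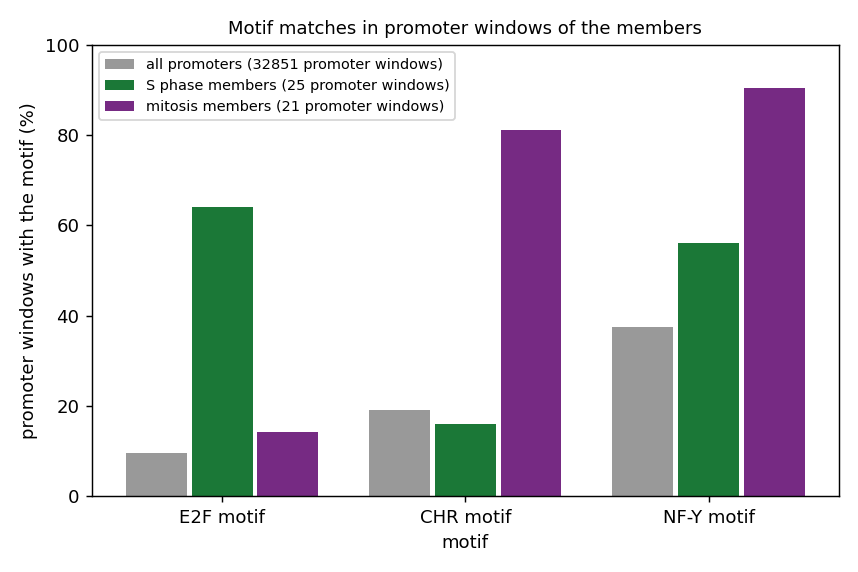
Share of promoter windows (%) with at least 1 match to the E2F, CHR or CCAAT (NF-Y) motif, for all RefSeq windows (grey), S phase members (green) and mitosis members (purple). The E2F bar is tallest for S phase members at 64.0%, and the CHR bar is tallest for mitosis members at 81.0%.

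Windows of 6 members, the brightest on the arrays in each list that hold a searched motif, show both layouts. They run 5′ to 3′ on the strand of the gene, with motif matches in capitals. Cdt1 lies on the plus strand at chr8:122567765-122568064, Mcm6 on the minus strand at chr1:128359656-128359955, and Pcna on the minus strand at chr2:132253131-132253430. Aurka lies on the minus strand at chr2:172370521-172370820, Plk1 on the plus strand at chr7:122159185-122159484, and Cdc20 on the minus strand at chr4:118437294-118437593. Cdt1 and Mcm6 held 2 and 5 E2F matches, while Pcna held 1 CCAAT box and 0 matches to the E2F letters searched. Each of the mitosis windows held 1 CHR match, near the downstream end in Aurka and Plk1. Aurka and Cdc20 held 2 CCAAT boxes each and Plk1 held 1.
Cdt1: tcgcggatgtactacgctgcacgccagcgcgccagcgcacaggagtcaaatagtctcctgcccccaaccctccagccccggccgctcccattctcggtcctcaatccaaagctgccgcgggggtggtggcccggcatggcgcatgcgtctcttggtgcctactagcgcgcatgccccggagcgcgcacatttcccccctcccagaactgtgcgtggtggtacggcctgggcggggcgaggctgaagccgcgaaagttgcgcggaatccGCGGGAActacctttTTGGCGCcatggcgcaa
Mcm6: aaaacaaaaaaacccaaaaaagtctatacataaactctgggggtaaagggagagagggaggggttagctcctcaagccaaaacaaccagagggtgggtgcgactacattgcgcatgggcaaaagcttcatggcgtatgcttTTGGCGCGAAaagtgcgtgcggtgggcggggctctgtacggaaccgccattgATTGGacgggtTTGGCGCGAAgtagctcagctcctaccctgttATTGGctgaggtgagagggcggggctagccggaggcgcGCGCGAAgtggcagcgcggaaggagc
Pcna: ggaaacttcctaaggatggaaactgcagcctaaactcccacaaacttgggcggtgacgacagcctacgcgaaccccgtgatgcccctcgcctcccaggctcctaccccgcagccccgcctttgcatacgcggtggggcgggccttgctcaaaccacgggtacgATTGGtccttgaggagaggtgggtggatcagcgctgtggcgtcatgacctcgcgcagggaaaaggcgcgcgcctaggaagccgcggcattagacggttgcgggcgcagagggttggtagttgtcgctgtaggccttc
Aurka: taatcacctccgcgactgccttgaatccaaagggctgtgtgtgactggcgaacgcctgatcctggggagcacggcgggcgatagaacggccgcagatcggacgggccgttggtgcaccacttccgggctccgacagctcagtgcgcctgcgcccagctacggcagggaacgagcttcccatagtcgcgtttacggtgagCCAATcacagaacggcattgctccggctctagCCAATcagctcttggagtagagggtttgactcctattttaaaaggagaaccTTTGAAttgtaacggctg
Plk1: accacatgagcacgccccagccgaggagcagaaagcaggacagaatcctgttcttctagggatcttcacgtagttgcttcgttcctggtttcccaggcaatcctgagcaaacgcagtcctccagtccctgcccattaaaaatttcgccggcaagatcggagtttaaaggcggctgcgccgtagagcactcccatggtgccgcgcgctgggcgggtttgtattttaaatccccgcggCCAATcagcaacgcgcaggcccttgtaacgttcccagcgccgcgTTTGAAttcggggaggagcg
Cdc20: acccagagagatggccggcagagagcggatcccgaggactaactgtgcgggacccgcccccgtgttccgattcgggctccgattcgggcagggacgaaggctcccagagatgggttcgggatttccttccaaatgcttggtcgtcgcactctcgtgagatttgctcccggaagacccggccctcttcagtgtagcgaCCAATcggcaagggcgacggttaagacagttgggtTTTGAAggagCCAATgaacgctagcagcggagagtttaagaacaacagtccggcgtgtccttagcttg

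Across the 45 tested members, the log2 ratio of CD8+CD122+ over CD8+CD122- was positive on both arrays for 33 (73.3%), where 29.2% of all genes tested were positive on both. It was negative on both arrays for 3 (6.67%), Cdk2, Prim1 and Kif23, where 24.1% of all genes were negative on both. Of the 33, 5 (Aurkb, Bub1, Bub1b, Tpx2 and Nusap1) were well above background on both arrays in CD8+CD122+ cells alone, so they were tested through the population in which they were higher. With a filter that needs both populations well above background on both arrays, 28 of 40 members were positive on both, where 28.6% of all genes were. Of the 45, the other 9 had opposite signs on the arrays. The direction used here is the reverse of the deposited value table of the series, which holds CD8+CD122- over CD8+CD122+. The median log2 ratio of the members was 0.19 (0.17 on array 1 and 0.22 on array 2), beside 0.01 for all genes tested (0.01 and 0). Single members ranged from -0.67 to 1.20. In these bulk samples a larger share of cells in cycle and more RNA per cycling cell cannot be told apart.

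No member passed the test for single genes. limma, which fits all genes together, called 0 of 21959 genes (0%) at a Benjamini-Hochberg adjusted p under 0.05, members included. The smallest adjusted p was 0.386 among the members, for Stmn1, and 0.151 among all genes. At an unadjusted p under 0.05 limma found 18 members higher and 2 lower in CD8+CD122+ cells, where 2.87% of all genes tested were higher and 3.52% lower. Bub1 and Nusap1, among the 18, were well above background on both arrays in CD8+CD122+ cells alone. No member was at least 2-fold higher or lower on both arrays, a size reached by 0.31% of all genes upward and 0.105% downward. Across the 45 members the ratios of array 1 and array 2 correlated with Pearson's r = 0.66 and Spearman's rho = 0.52, beside 0.406 and 0.103 over all genes. These are descriptions across genes that share the same arrays, and genes are not independent replicates.

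**Figure D2:**
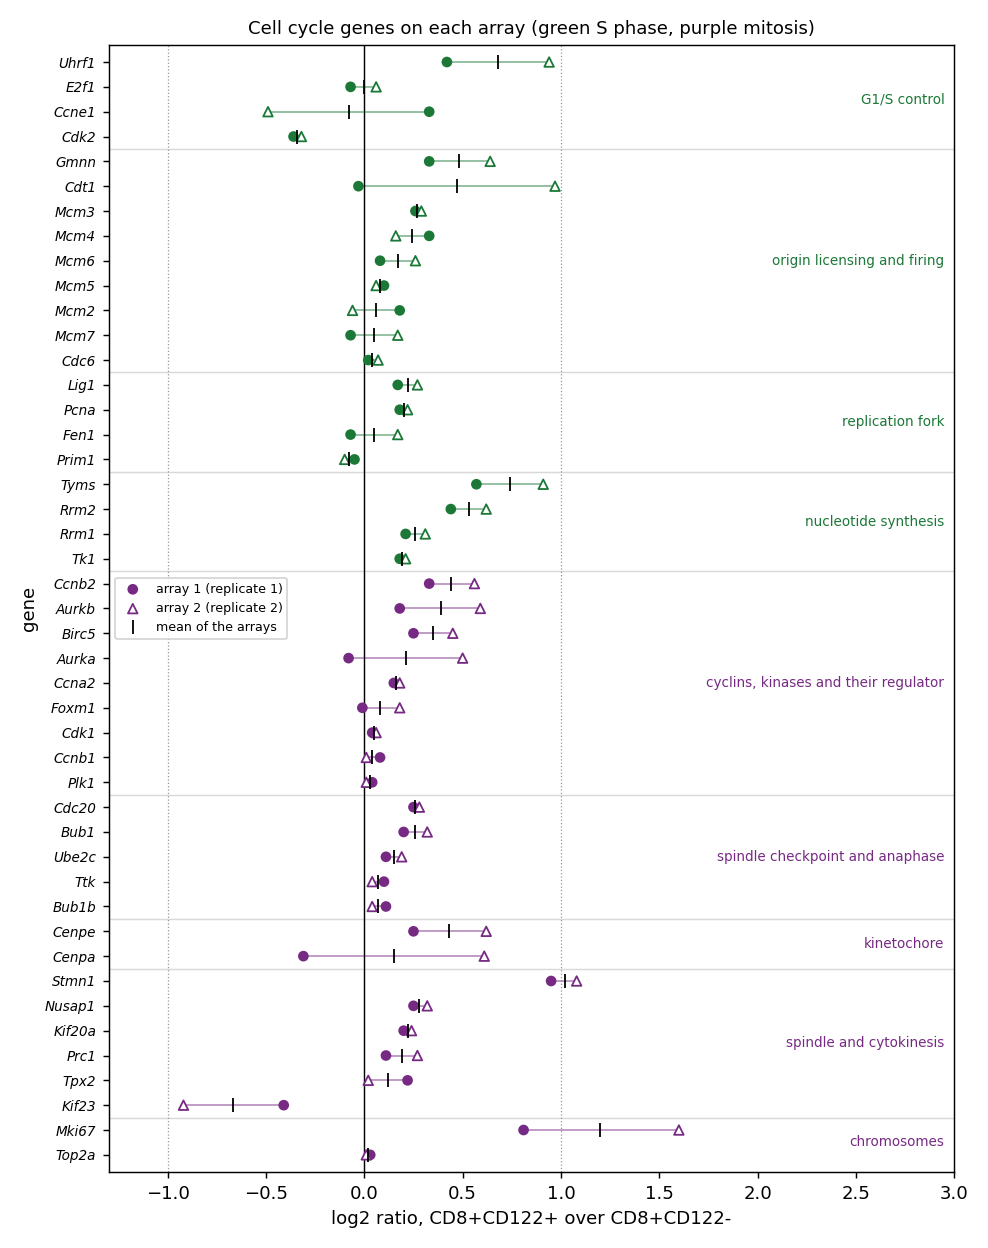
Log2 ratio of CD8+CD122+ over CD8+CD122- for the 45 tested members on array 1 (filled circles) and array 2 (open triangles), with the mean of the arrays as a black bar, grouped by role (green, S phase; purple, mitosis). Dotted lines mark 2-fold. Most pairs of points lie right of 0, Mki67 and Stmn1 farthest right, and Kif23 and Cdk2 lie left of it.

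The S phase and mitosis members had like medians. The 21 tested S phase members had a median log2 ratio of 0.19 (0.18 on array 1 and 0.21 on array 2), with 13 positive on both arrays, 2 negative and 6 of opposite signs. For the 24 tested mitosis members the median was 0.18 (0.13 and 0.25), with 20 positive on both arrays, 1 negative and 3 of opposite signs. The S phase median minus the mitosis median was 0.02, made of 0.04 on array 1 and -0.05 on array 2. From the scanner's processed signals it was -0.09 (-0.06 and -0.11). With a filter that needs both populations well above background on both arrays it was 0.03, from 0.19 for S phase and 0.16 for mitosis. The order of the lists therefore turned between the arrays and with the processing.

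At the entry into S phase, 4 of 5 members were tested, 1 was positive and 1 negative on both arrays, and their median log2 ratio was -0.04. Uhrf1, which recognises half-methylated DNA and brings the maintenance methyltransferase to new DNA, had the highest ratio of them. Normalised intensity is the dye signal after background correction and loess. It includes the offset of 50 added in that correction, which is a large part of a dim value. For Uhrf1 it was 136 in CD8+CD122+ and 101 in CD8+CD122- cells on array 1, and 257 and 134 on array 2. CD8+CD122+ was the brighter population on both arrays, with a mean log2 ratio of 0.68 ± 0.37 (SD, n = 2 arrays; 1.60-fold; limma adjusted p = 0.714). A dimmer Uhrf1 probe averaged 0.34. Cdk2, the kinase that drives entry into S phase, gave 73.6 against 94.6 on array 1 and 86.0 against 107 on array 2. CD8+CD122- was the brighter population on both arrays, and the mean log2 ratio was -0.34 ± 0.03 (SD, n = 2; limma adjusted p = 0.62). A second Cdk2 probe, dimmer than the first, read 0.06 and 0.10 on the arrays. It was well above background in CD8+CD122- cells on only 1 of the arrays, so its ratios do not measure both populations. Ccne1, the cyclin partner of Cdk2, had log2 ratios of 0.33 and -0.49, which point in opposite directions. E2f1, the transcription factor itself, stood at -0.07 and 0.06 and was dim in both populations.

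Origins of replication are licensed when Cdc6 and Cdt1 load the Mcm2 to Mcm7 helicase, and geminin (Gmnn) blocks Cdt1 from loading it again. Of 10 members with this role 9 were tested, 6 were positive and 0 negative on both arrays, and their median log2 ratio was 0.17. Gmnn had normalised intensities of 636 in CD8+CD122+ and 508 in CD8+CD122- cells on array 1, and 999 and 642 on array 2. It was brighter in CD8+CD122+ cells on both arrays, at a mean log2 ratio of 0.48 ± 0.22 (SD, n = 2; limma adjusted p = 0.69). Cdt1 had a near equal mean of 0.47, but with an SD of 0.71. Its intensities were 2093 in CD8+CD122+ and 2139 in CD8+CD122- cells on array 1, and 7678 and 3923 on array 2, so that the whole difference lay on array 2 (log2 ratio 0.97, against -0.03 on array 1). Cdc6 was close to equal at 0.02 and 0.07.

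The helicase subunits had small ratios. All 6 were tested, and their median log2 ratio was 0.13 (0.14 on array 1 and 0.16 on array 2). Mcm3 (0.26 and 0.29), Mcm4 (0.33 and 0.16), Mcm6 (0.08 and 0.26) and Mcm5 (0.10 and 0.06) were positive on both arrays. Mcm2 (0.18 and -0.06) and Mcm7 (-0.07 and 0.17) had opposite signs, and with median centring in place of loess the mean of Mcm7 went from 0.05 to 0.00. Mcm6 gave 2460 in CD8+CD122+ and 2332 in CD8+CD122- cells on array 1, and 3824 and 3186 on array 2. Mcm3 gave 954 against 799 on array 1, and 1737 against 1425 on array 2, a mean log2 ratio of 0.27 ± 0.02 (SD, n = 2; limma adjusted p = 0.679). The probes of Mcm2 disagreed. Its brightest probe averaged 0.06, while the other two read -0.42 and -0.60, and -0.31 and -0.48, on arrays 1 and 2, and the mean of all Mcm2 probes was -0.28.

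At the replication fork 4 of 4 members were tested, 2 were positive and 1 negative on both arrays, and their median log2 ratio was 0.13. Pcna, the sliding clamp that holds polymerases on DNA, gave 2153 in CD8+CD122+ and 1896 in CD8+CD122- cells on array 1, and 2169 and 1865 on array 2. The populations kept the same order on both arrays, with a mean log2 ratio of 0.20 ± 0.02 (SD, n = 2; limma adjusted p = 0.768). Lig1, the ligase that seals Okazaki fragments, had log2 ratios of 0.17 and 0.27. Fen1, the nuclease that trims their flaps, stood at -0.07 and 0.17. Prim1, the catalytic subunit of primase, stood at -0.05 and -0.10.

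The nucleotide synthesis genes had the highest median of the S phase roles. All 4 were positive on both arrays, with a median log2 ratio of 0.39 (0.32 on array 1 and 0.46 on array 2). Tyms, which makes thymidylate from deoxyuridylate, had intensities of 240 in CD8+CD122+ and 161 in CD8+CD122- cells on array 1, and 330 and 176 on array 2. Its mean log2 ratio was 0.74 ± 0.24 (SD, n = 2; 1.67-fold; limma adjusted p = 0.598), and over its 3 passing probes the means ran from 0.08 to 0.74. Rrm2, the small subunit of ribonucleotide reductase, which is made in S phase, gave 100 against 73.9 on array 1, and 118 against 76.4 on array 2. That is a mean log2 ratio of 0.53 ± 0.13 (SD, n = 2; 1.44-fold; limma adjusted p = 0.584). The large subunit Rrm1 had log2 ratios of 0.21 and 0.31, and the salvage enzyme Tk1, thymidine kinase, 0.18 and 0.21. All of these genes were brighter in CD8+CD122+ cells on both arrays.

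**Figure D3:**
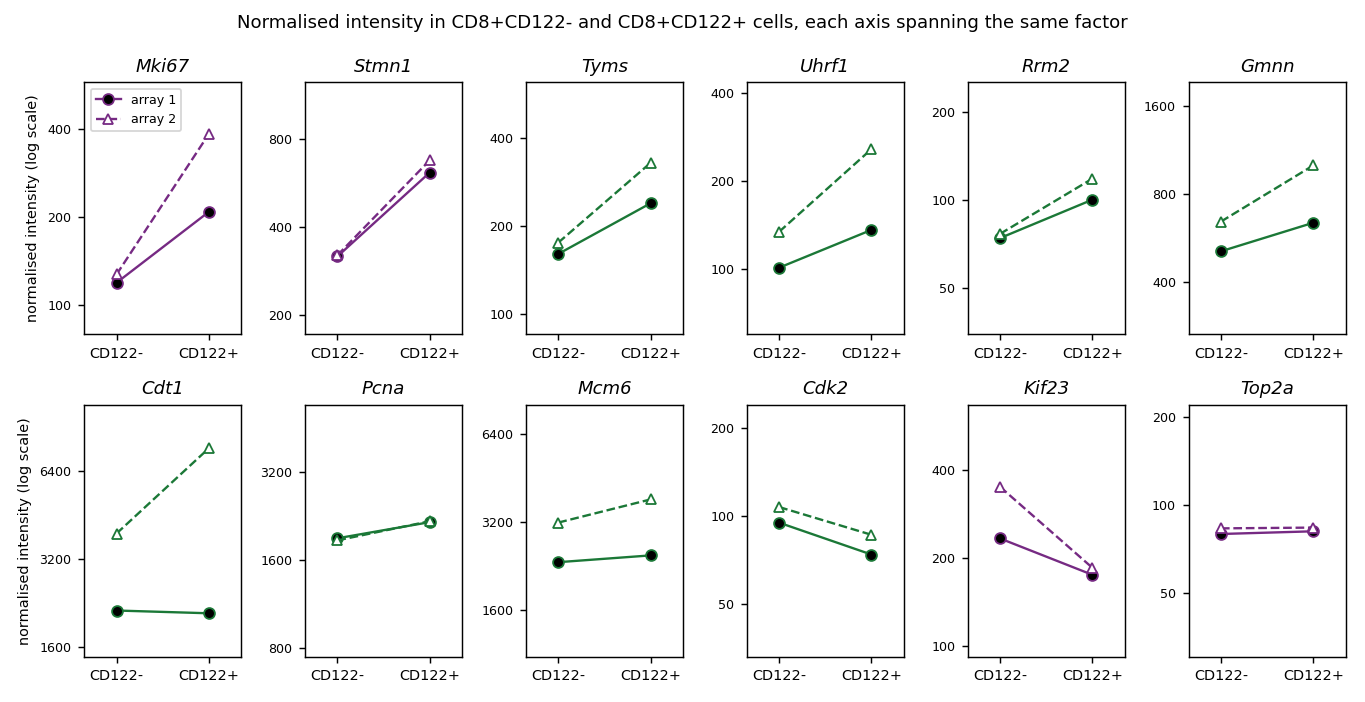
Normalised intensity (log axes, each spanning the same factor) in CD8+CD122- and CD8+CD122+ cells for 12 members, with 1 line per array (filled circles, array 1; open triangles, array 2; green, S phase; purple, mitosis). The lines of Mki67, Stmn1, Tyms, Uhrf1, Rrm2 and Gmnn slope upward on both arrays, that of Cdt1 on array 2 alone, and those of Cdk2 and Kif23 downward on both. Levels include the offset of 50 and were not scaled between arrays.

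Among the mitosis members, 9 of 9 cyclins, kinases and their regulator Foxm1 were tested. Of these 7 were positive and 0 negative on both arrays, and their median log2 ratio was 0.16 (0.08 on array 1 and 0.18 on array 2). Ccnb2, a B-type cyclin that partners Cdk1, gave 148 in CD8+CD122+ and 118 in CD8+CD122- cells on array 1, and 210 and 142 on array 2. Its mean log2 ratio was 0.44 ± 0.16 (SD, n = 2; limma adjusted p = 0.669). Birc5, survivin, which guides Aurora B to centromeres, gave 909 against 766 on array 1, and 1060 against 773 on array 2, a mean of 0.35 ± 0.15 (SD, n = 2; limma adjusted p = 0.714). Aurkb, Aurora B itself, was not well above background in CD8+CD122- cells on either array. Its measured means, after scaling between the arrays, were 75.8 in CD8+CD122+ and 58.0 in CD8+CD122- cells. A bound used the larger of the CD8+CD122- signal and the lowest signal well above background on each array. Against it the CD8+CD122+ level was 1.25-fold higher (limma adjusted p = 0.836). On array 1 that lowest signal was 65.7 on the same scale, close to the CD8+CD122+ intensity of 64.6 before that scaling. The bound therefore rests mainly on array 2, where the CD8+CD122- signal used was not well above background.

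Aurka, the kinase of the spindle poles, had log2 ratios of -0.08 and 0.50, so its positive mean of 0.21 came from array 2. Ccna2, the cyclin of S phase and early mitosis, had 0.15 and 0.18. Ccnb1, the main mitotic cyclin, had 0.08 and 0.01. Cdk1, the kinase that starts mitosis, had 0.04 and 0.06. Plk1, which acts on centrosomes and in cytokinesis, had 0.04 and 0.01, and its mean of 0.03 became -0.01 with median centring in place of loess. Foxm1, the activator of late cycle genes, had -0.01 and 0.18. Cdk1 and Foxm1 gave dim signals, between 72.3 and 83.5 for Cdk1, and the offset added before taking logs shrinks ratios at such signals.

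Of the 5 genes of the spindle checkpoint and of anaphase entry, 3 (Cdc20, Ube2c and Ttk) stood well above background for both populations and arrays, and their ratios were positive on both. Cdc20, the activator of the anaphase-promoting complex, gave 384 in CD8+CD122+ and 323 in CD8+CD122- cells on array 1, and 305 and 252 on array 2. This is a mean log2 ratio of 0.26 ± 0.02 (SD, n = 2; limma adjusted p = 0.682). Bub1, a checkpoint kinase at kinetochores, was not well above background in CD8+CD122- cells on either array. Its measured means, after scaling between the arrays, were 70.5 in CD8+CD122+ and 58.8 in CD8+CD122- cells. By the bound used for Aurkb its CD8+CD122+ level was 1.14-fold higher (limma adjusted p = 0.731). On array 1 its CD8+CD122+ intensity, 65.5 before that scaling, was again close to the lowest signal well above background, 65.7 after it. This bound too therefore rests mainly on array 2. Ube2c, a ubiquitin-conjugating enzyme of the anaphase-promoting complex, had log2 ratios of 0.11 and 0.19, and the checkpoint kinase Ttk 0.10 and 0.04. Bub1b, another checkpoint protein, had 0.11 and 0.04, with CD8+CD122- cells not well above background on array 1.

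Of the 3 kinetochore members Cenpe and Cenpa were tested. Cenpe, a motor that attaches chromosomes to microtubules, gave 169 in CD8+CD122+ and 142 in CD8+CD122- cells on array 1, and 222 and 145 on array 2. Its mean log2 ratio was 0.43 ± 0.26 (SD, n = 2; limma adjusted p = 0.767). A dimmer Cenpe probe that passed gave -0.03 and 0.22, with CD8+CD122- cells well above background on only 1 array. Cenpa, the histone H3 variant that marks centromeres, gave 139 against 172 on array 1 and 304 against 199 on array 2. Its log2 ratios of -0.31 and 0.61 point in opposite directions.

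For the spindle and cytokinesis, 6 of 7 members were tested, 5 were positive and 1 negative on both arrays, and the median log2 ratio was 0.20 (0.21 on array 1 and 0.25 on array 2). Stmn1, stathmin, which binds tubulin and destabilises microtubules, had intensities of 614 in CD8+CD122+ and 317 in CD8+CD122- cells on array 1, and 676 and 320 on array 2. Both arrays gave nearly the same ratio, 0.95 and 1.08, for a mean of 1.02 ± 0.09 (SD, n = 2; 2.02-fold; limma adjusted p = 0.386). A dimmer Stmn1 probe averaged 0.33. Stmn1 is also known in cells outside mitosis. Nusap1, which bundles spindle microtubules, had 0.25 and 0.32, the motor Kif20a 0.20 and 0.24, Prc1, which crosslinks the midzone, 0.11 and 0.27, and the spindle assembly factor Tpx2 0.22 and 0.02. On array 1 the CD8+CD122- signals of Nusap1 (65.5) and Tpx2 (56.2) were not well above background, so their ratios there were taken against background.

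Kif23, the motor of the central spindle needed for cytokinesis, went the other way. Its intensities were 175 in CD8+CD122+ and 233 in CD8+CD122- cells on array 1, and 185 and 350 on array 2. The CD8+CD122- level was the higher on both arrays, with a mean log2 ratio of -0.67 ± 0.36 (SD, n = 2; limma adjusted p = 0.714), the lowest of the members. Of its 3 passing probes, a second gave -0.30 and -0.91, and the dimmest gave -0.04 and 0.06.

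The chromosome genes Mki67 and Top2a had means far apart, although both were positive on both arrays. Mki67, the Ki67 antigen that coats mitotic chromosomes and is widely used to mark cycling cells, had intensities of 208 in CD8+CD122+ and 119 in CD8+CD122- cells on array 1, and 384 and 127 on array 2. CD8+CD122+ was the brighter population on both arrays, at a mean log2 ratio of 1.20 ± 0.56 (SD, n = 2; 2.30-fold; limma adjusted p = 0.67). This was the highest mean of the members. A dimmer Mki67 probe averaged 0.18. It was well above background in CD8+CD122- cells on only 1 of the arrays, so its ratios do not measure both populations either. Top2a, the topoisomerase that untangles chromosomes, gave 81.0 against 79.3 on array 1, and 83.4 against 82.9 on array 2, a mean log2 ratio of 0.02. Its 3 passing probes averaged between 0.02 and 0.38. The probe at 0.38 was well above background in CD8+CD122- cells on only 1 of the arrays, so its ratios of 0.21 and 0.55 do not measure both populations.

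Over all members, 76 probes were on the array and 62 passed the filter, with 0 saturated. Of 13 members with several passing probes, 9 had means of 1 sign on all of them and 4 had means of both signs. These were Mcm2, Kif23, Cdk2 and E2f1, the last with a mean of 0 on 1 probe and 0.13 on the other. The other 32 tested members rest on 1 probe each.

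How large the ratios were depended on brightness and background treatment. The scanner's processed signals, with the background subtracted and no offset, gave a member median of 0.25, with 0.22 for S phase and 0.30 for mitosis. Under them 5 members reached 2-fold upward on each array, as did 0.656% of all genes, and 0 members reached 2-fold downward, as did 0.291% of all genes. Of these Mki67 (1.28 and 2.14), Stmn1 (1.09 and 1.25) and Rrm2 (1.37 and 1.44) stood well above background for both populations and arrays. Aurkb and Bub1 had CD8+CD122- signals not well above background on either array. Their bounds were 1.25-fold and 1.14-fold and rest mainly on array 2. Cdk2 stood at -1.03 and -0.88, and Kif23 at -0.55 and -1.20. For the bright members Pcna and Mcm6 the mean was 0.20 and 0.17 with the offset, and 0.22 and 0.18 from the processed signals.

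**Figure D4:**
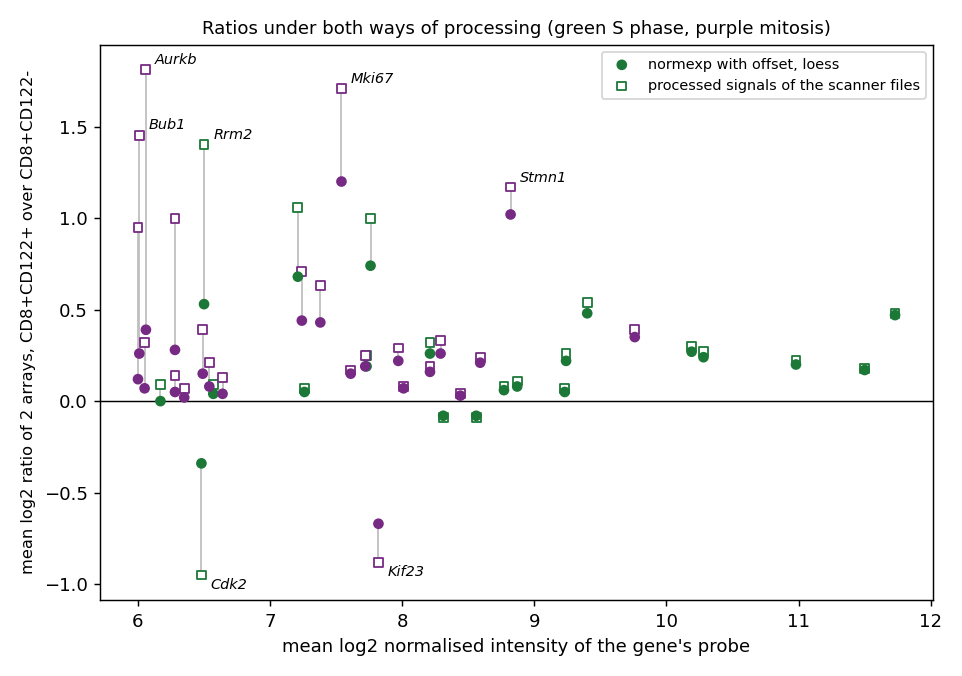
Mean log2 ratio of CD8+CD122+ over CD8+CD122- against mean log2 normalised intensity for the 45 tested members (green, S phase; purple, mitosis), with normexp and an offset of 50 (filled circles) and from the scanner's processed signals (open squares), joined by a line for each gene. Lines are long at the left, for dim members such as Aurkb, Bub1, Rrm2 and Cdk2, and short at the right.

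The log2 ratios were also set against the promoter motifs. Among the 37 members with both a promoter window and a tested probe, the 17 with a CHR match had a median log2 ratio of 0.07 and the 20 without one 0.21. The 16 with an E2F match had a median of 0.12 and the 21 without one 0.19. The 27 with a CCAAT box had a median of 0.15 and the 10 without one 0.21. These medians carry no test.

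Other genes of the pathway, 113 listed and 103 tested, had a median log2 ratio of 0.06. On both arrays 45 (43.7%) were positive and 19 (18.4%) negative, beside 29.2% and 24.1% of all genes. limma called 0 of them, and at an unadjusted p under 0.05 it found 18 higher and 1 lower, beside 2.87% and 3.52% of all genes. Further mitosis genes stood above further replication genes. Of 43 tested mitosis genes, 27 were positive and 3 negative on both arrays, with a median of 0.12 (0.12 on array 1 and 0.16 on array 2). Only 35 of the 43 had every signal well above background, whereas all 38 tested replication genes did. Among the 27, Nuf2, Spc24, Cenph, Kif18a, Pbk and Ncapg had dim CD8+CD122- signals on array 1. These were not well above background, so the ratios of these genes there were taken against background. Of 38 tested replication genes, 12 (31.6%) were positive and 8 (21.1%) negative, shares near those of all genes, with a median of 0.00 (0.03 and -0.04). The difference between these lists was not tested.

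**Figure D5:**
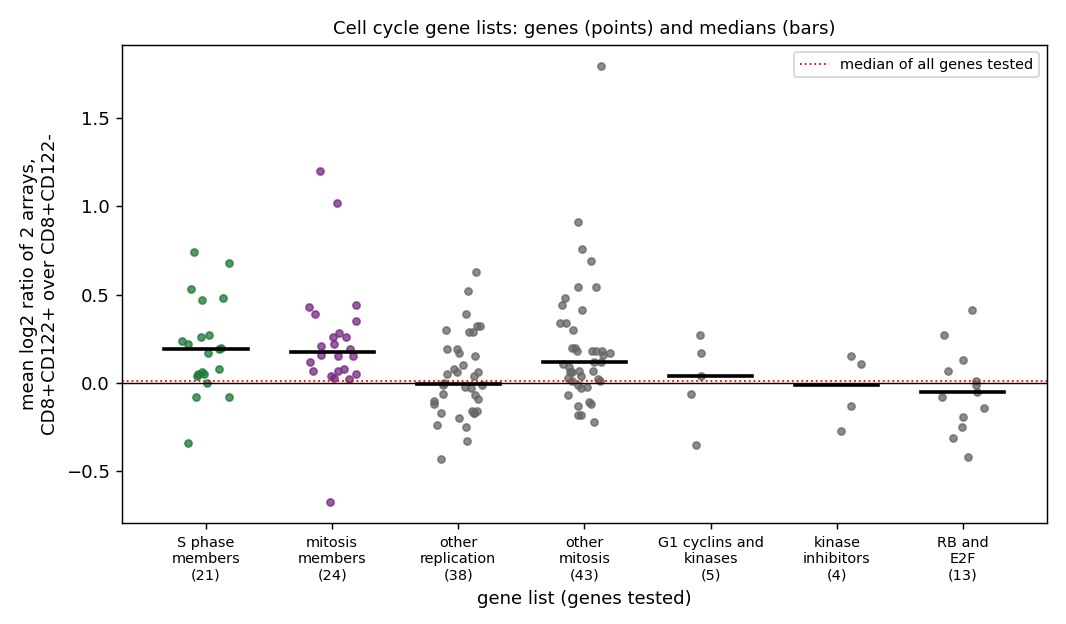
Mean log2 ratio of CD8+CD122+ over CD8+CD122- for each tested gene (points) in the S phase and mitosis members and in 5 lists of other cell cycle genes, with list medians as black bars and the median of all genes tested as a red dotted line. The medians of the member lists are 0.19 and 0.18. That of other mitosis genes is 0.12, and the remaining lists lie near 0.

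The highest of the further mitosis genes was Cks2, a small partner of cyclin-dependent kinases. It gave 1485 in CD8+CD122+ and 786 in CD8+CD122- cells on array 1, and 3609 and 570 on array 2, a mean log2 ratio of 1.79 ± 1.23 (SD, n = 2; limma adjusted p = 0.779). The histone variant gene H2az1 had log2 ratios of 0.76 and 1.05, and Hmgb2, which encodes a DNA-bending chromatin protein, 0.48 and 1.05. Lowest of those with 1 sign on both arrays were the condensin genes Smc2 (-0.23 and -0.13), Smc4 (-0.15 and -0.21) and Ncaph (-0.19 and -0.03). Among replication genes with 1 sign on both arrays, Pola1 of polymerase alpha (0.25 and 0.40) and the histone chaperone gene Chaf1b (0.30 and 0.34) were among the highest. Pold3 of polymerase delta (-0.05 and -0.45), the origin kinase gene Cdc7 (-0.04 and -0.43) and Orc2 of the origin recognition complex (-0.06 and -0.35) were the lowest with 1 sign.

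The genes upstream of S phase showed no common direction. Of 5 tested cyclins and kinases of the first gap phase, 1 was positive and 2 negative on both arrays, with the D-type cyclin genes Ccnd3 at 0.51 and 0.03, Ccnd1 at -0.09 and -0.04, and Ccnd2 at -0.01 and -0.69. Of 4 tested kinase inhibitors, Cdkn2c (0.18 and 0.11) and Cdkn1c (0.06 and 0.17) were positive, and Cdkn1b, which encodes p27 (-0.50 and -0.04), and Cdkn2d (-0.24 and -0.03) negative. Of 13 tested genes of the retinoblastoma and E2F families and their partners, 3 were positive and 4 negative on both arrays. E2f2 (0.62 and 0.20) and the E2F partner Tfdp1 (0.32 and 0.22) were highest, and the pocket protein gene Rbl1 (-0.07 and -0.76) and Lin9 of the MuvB core (-0.29 and -0.33) lowest.

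Checks of the sort and of other cells stand beside these values. Il2rb, which encodes CD122, had log2 ratios of 2.60 and 2.34 (mean 2.47 ± 0.18, SD, n = 2; limma adjusted p = 0.312). The CD8 T cell markers were all tested, and averaged -0.01 for Cd3e, with opposite signs on the arrays, -0.13 for Cd3d, -0.61 for Cd8a and -0.67 for Cd8b1. Array-wide, 76.4% of spots were well above background in CD8+CD122+ and 69.5% in CD8+CD122- cells on array 1, and 80.2% and 83.4% on array 2. Erythroid markers were tested for 4 of 6 genes, all 4 positive on both arrays, with a median of 0.12. Of these, Klf1 was well above background on both arrays in CD8+CD122+ cells alone, so it was tested through the population in which it was higher. Their summed intensity was 1415 in CD8+CD122+ and 1329 in CD8+CD122- cells on array 1, and 5953 and 5193 on array 2. Epor had no probe that passed.

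Monocyte and macrophage markers were tested for 3 of 4 genes, all positive on both arrays, with Lyz2 at 0.77 and 0.33, and summed intensities of 572 and 475 on array 1 and 838 and 739 on array 2. Dendritic cell markers were positive for 3 of 3, with a median of 0.03. Of these, Siglech was well above background on both arrays in CD8+CD122+ cells alone. Plasma cell markers were positive on both arrays for 2 of 3 tested, with summed intensities of 260 in both populations on array 1 and 426 and 304 on array 2. NK cell markers were positive for 2 of 3, B cell markers for 2 of 4, granulocyte precursor markers for 0 of 3, and Cd4 had opposite signs. Ncr1, Sdc1, Itgam and Camp had no probe that passed. For the members and for the erythroid, monocyte, plasma cell, NK cell and dendritic cell markers alike, the summed intensities of CD8+CD122+ cells were on each array at least those of CD8+CD122- cells. For B cell markers they were lower (649 against 685, and 668 against 805), as for granulocyte precursor markers (248 against 251, and 315 against 319). Over all genes tested the sum was 11947475 in CD8+CD122+ and 12626255 in CD8+CD122- cells on array 1, and 15308203 and 14182311 on array 2. The part of such other cells in the members' ratios was not tested. Among the members, 33 of 45 (73.3%) had a higher ratio on array 2 than on array 1, beside 10179 of all 21959 genes tested (46.4%). Over all genes tested the log2 ratios spread more widely on array 2, with an SD of 0.335 against 0.221 on array 1. The part of this wider spread in the members' count was not tested.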

How the data were processed

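Per the labels, each of 2 Agilent two-colour arrays received amplified RNA of both populations, with opposite dyes on the second. The deposited scanner files come from Agilent Feature Extraction (A.7.5.1 for array 1, 8.1.1.1 for array 2) and hold spot and background intensity on a linear scale, flags of 0 or 1 and log10 ratios, per the file headers. The deposited value table also holds log10 ratios. Each column has a median of 0 and equals the scanner's log10 ratio within 4.98e-06, for array 1 after a change of sign and for array 2 without one. Both columns are therefore CD8+CD122- over CD8+CD122+, and the sources used here do not say whether they were centred, or name a genome build.

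From the 43790 spots of each array, 2256 controls and the outlier spots were left out and saturated spots were kept. Mean spot signals were corrected against the median local background (normexp, offset 50) and normalised within arrays by loess, with controls at weight 0, with limma 3.58.1 (R 4.3.3). Of 41174 probes, 21848 were named through the RefSeq gene table (GRCm38.p6) by accession, 5774 by symbol and 4394 by synonym, and 9158 kept the file's name. The 30794 probes well above background in the same population on both arrays were kept, and the brightest probe stood for its gene. Ratios of dim genes are shrunk by the offset, which all intensities, their sums and the bounds include. All genes were fitted together (lmFit and eBayes, 1 residual degree of freedom, two-sided, Benjamini-Hochberg). A dye term would leave 0 degrees of freedom. These steps were checked on simulated data. A bound sets the bright population's mean against a floor, taken per array and channel after loess and Aquantile as the larger of the measured dim signal and the smallest one that any probe well above background had.

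The members, roles, marker and pathway lists were chosen with earlier results of these data known. All tested members are named, and from each list of other cell cycle genes up to 3 highest and 3 lowest with 1 sign on both arrays, apart from items that are not reported here. The alternatives changed the background correction, normalisation, filter, probe rule, outlier flags, variance model and arrays used.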

Additional observations from a re-analysis of the deposited data

How the results depend on the processing

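With an offset of 0 in place of 50, the median log2 ratio became 0.27 for the members, 0.22 for S phase, 0.30 for mitosis and 0.09 for the other cell cycle genes, S phase minus mitosis became -0.08, and 5 members reached 2-fold upward on each array. With the scanner's processed signals these values were 0.25, 0.22, 0.30, 0.08, -0.09 and 5, Aurkb and Bub1 among them, which were not well above background in CD8+CD122- cells. The S phase median was 0.17 with no background correction, with no filter on dim probes and with the mean of all probes of a gene. The median of the other cell cycle genes was 0.05 with no background correction, 0.07 with the mean of all probes, and 0.04 with median centring and with a filter that needs both populations above background. That filter left 28 of 40 members positive on both arrays, with 28.6% of all genes. Median centring left 23 members positive and 2 negative on both arrays, with 15.2% and 13% of all genes, and a correlation of 0.044 between the arrays over all genes. On 1 array alone the member median was 0.17 or 0.22, the S phase median 0.18 or 0.21, the mitosis median 0.13 or 0.25, the other cell cycle genes 0.06, and S phase minus mitosis -0.05 or 0.04, while counts over both arrays have no value there. Without replicate 2, 7 members changed sign (Ccne1, Cdt1, Mcm7, Fen1, Foxm1, Aurka and Cenpa), and without replicate 1, 2 did (E2f1 and Mcm2). limma called 0 members under every alternative fitted to both arrays, an intensity trend and a robust fit included. Each array holds both populations in 1 ratio, so the fit is itself a paired one. Dim members such as Aurkb and Bub1 lie close to the background, which limits the precision of their ratios.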
